A study of Mus musculus with 4 samples.

Results

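The collagen and laminin genes are the probes whose platform symbol is Col or Lam followed by a chain number, so that the members were chosen by name and not by their values. The rule found 114 probes for 50 genes, 41 collagens and 9 laminins, among 41174 probes and 18322 genes with a symbol. Each gene is given by its brightest probe (mean over arrays and channels), and by the other probes where they differ in sign or in p-value. *Lamb1* and *Col26a1* lie outside the rule, because the platform lists them under the older symbols *Lamb1-1* and *Emid2*. Their brightest probes had log2 ratios of 0.05 and 0.01.

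The tested RNA came from dissected midbrain of *Lmx1a-dr/dr* embryos at E12.5, as 4 pools (replicates a to d) of 5 midbrains each. The paper's methods call the tissue midbrain, while its Results describe it as tegmentum of the mesodiencephalon and the retromamillary area. The dr-J allele is a point mutation in *Lmx1a*, a LIM-homeodomain transcription factor of the dopaminergic midbrain, and was kept on a C57Bl/6J background. Each pool was hybridized on a dual-colour array against the same pool of 20 *Lmx1a+/+* midbrains. The dr/dr RNA was labelled with Cy3 on arrays a and c and with Cy5 on arrays b and d. All values are log2 ratios of dr/dr over this wild-type pool, computed from mean spot intensities after loess, so a value of 0 means equal signal. They were tested against 0 with limma, with a term for the dye, and p-values were adjusted over all probes (Benjamini-Hochberg). The wild-type spread is not part of the test, since all arrays shared 1 wild-type pool, and the mutant is compared as dissected tissue, in which fewer cells of a type and less RNA per cell cannot be told apart.

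Collagens are secreted triple helices. The fibrillar types I, III and V build the interstitial fibrils of the mesenchyme and meninges that wrap the embryonic brain. Type IV collagen and the laminins instead form the sheets of basement membranes, which line the pial surface of the neural tube and its blood vessels. A laminin is a trimer of an alpha, a beta and a gamma chain, and the gamma chain encoded by *Lamc1* is shared by most of them. The other collagens decorate fibrils, form beaded filaments, anchor epithelia or span the cell membrane.

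Over all probes the log2 ratios differed by dye orientation, to a degree that varied between genes and between members. Median spot intensities were 137.4 to 174.2 in Cy5 and 70.0 to 84.7 in Cy3, over backgrounds of 32.5 to 36.4. The log2 ratios of the 2 arrays with dr/dr in Cy3 correlated with r = 0.639 over probes, those of the 2 arrays with dr/dr in Cy5 with r = 0.579, and those of arrays of opposite orientation with r between -0.342 and -0.290. The 2 orientations carried different dr/dr pools, so that differences between pools and between dyes cannot be told apart. *Lmx1a* itself was at -0.46, -0.75, -0.39 and -0.84 on arrays a to d (mean -0.61, 65.5% of wild-type, adjusted p = 0.0959 with limma). It was lower on every array, and the permutation F2 test of the study's methods called it (family-wise p = 0.0008). Of the midbrain markers, *En1* was at -0.48 and *Otx2* at 0.20 (unadjusted p = 0.000781 and 0.00512, n = 4, limma), and all 5 listed midbrain genes were above background on every array.

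No collagen or laminin gene passed the threshold for a difference in *Lmx1a-dr/dr* midbrain. At an adjusted p under 0.05 limma called 0 of the 50 genes and 0 of all 41174 probes (0%), and the smallest adjusted p among the member probes was 0.134. The permutation F2 test of the study's methods called 110 of all probes (0.267%), or 57 brightest probes of all genes (0.311%), and 0 of the 114 member probes. At an unadjusted p under 0.05 there were 4 members of 50, a share of 8%, against 18.3% of all genes. By direction, 2 members were lower, against 10.4% of all genes, and 2 were higher, against 7.9%. The members' log2 ratios ran between -0.19 and 0.15, with 25 below 0 and 25 above 0. Their median was 0.00, as was that over all genes, which loess holds close to 0. No member was past 0.2 in either direction, against 7.17% of all genes. The 95% moderated interval lay within 0.25 of 0 for 44 of the 50 members, against 73% of all genes, and within 0.5 for all 50. Differences inside these intervals remain possible. Over all genes the means ran between -1.14 and 0.86 and limma called none. The lack of a call with 4 arrays thus does not show that a difference was small.

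**Figure D1:**
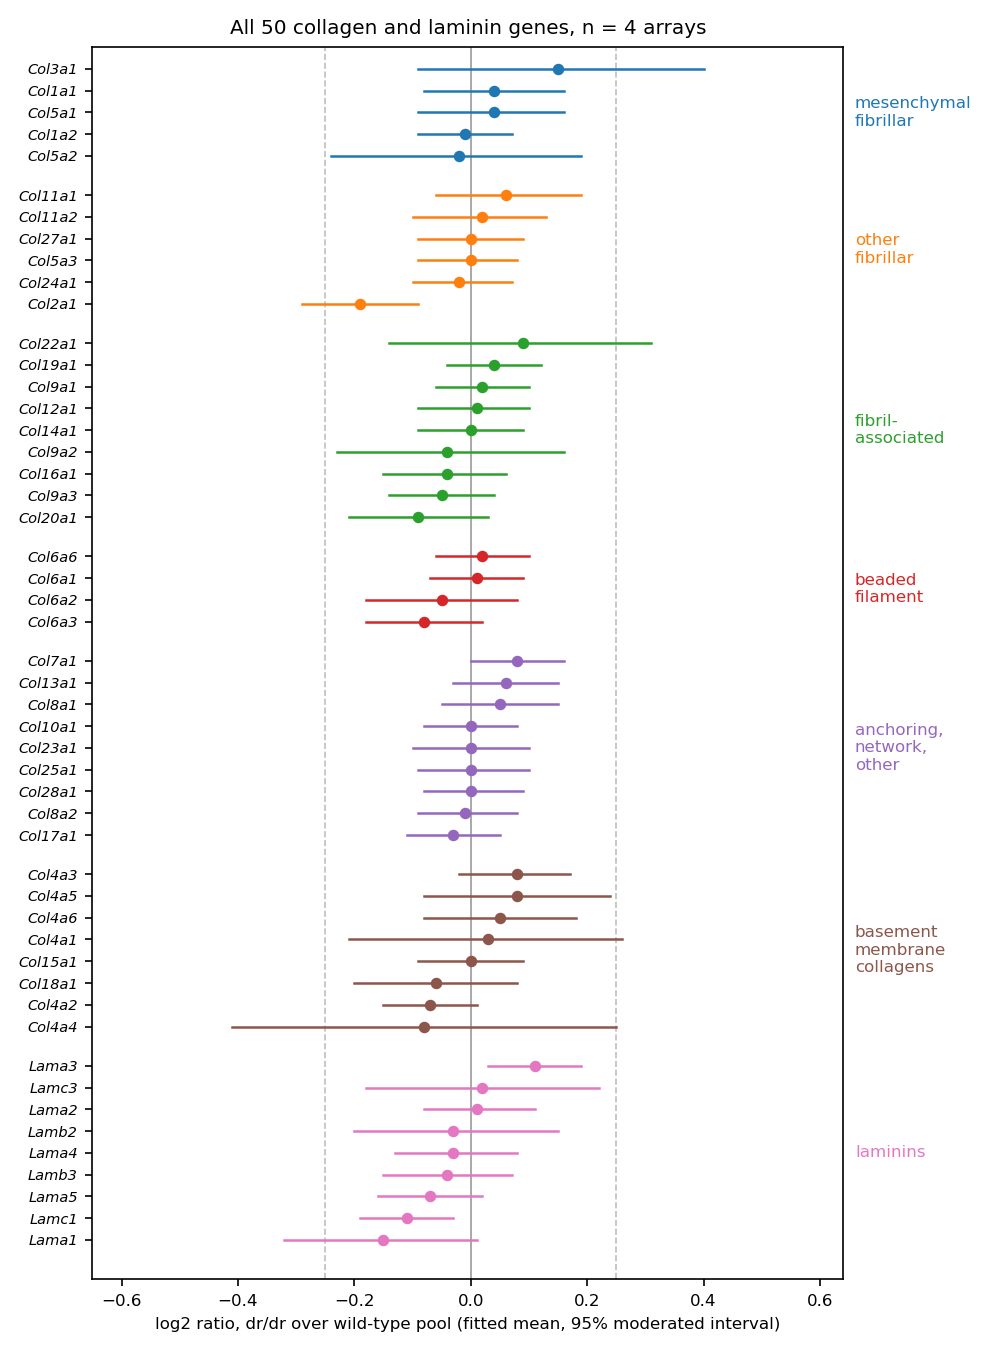
Fitted mean log2 ratio of dr/dr over the wild-type pool (points, x axis) with its 95% moderated interval (lines) for the brightest probe of each of the 50 collagen and laminin genes, grouped by class (y axis), n = 4 arrays. Dashed lines stand at -0.25 and 0.25. The means run between -0.19 for *Col2a1* and 0.15 for *Col3a1*, and 44 intervals lie between the dashed lines.

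Signals were modest. The member spots were 1.27 to 27.0 times their local background in the dr/dr channel and 1.34 to 28.8 times in the wild-type channel. Their medians were 2.73 in dr/dr and 2.93 in wild-type, against 5.32 and 5.61 for all genes, and the part of this dimness in the members' low share of small p-values was not tested. For 41 of the 50 members the brightest probe exceeded background in both channels on all 4 arrays. The exceptions were *Col15a1*, *Lamb3*, *Col12a1*, *Col16a1*, *Col6a1*, *Col6a6*, *Col8a2*, *Col10a1* and *Col28a1*, whose brightest-probe ratios near 0 carry little information. *Col12a1* had another probe that was above background everywhere, at 0.01. A spot that holds mostly background has a ratio pulled towards 0, since no background was subtracted.

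The mesenchymal fibrillar collagens were close to 0, and the sign depended on the array. The median over the 5 genes was 0.04 for the fitted means, with 0.05, 0.11, -0.13 and -0.03 on arrays a to d. None of the 5 had an unadjusted p under 0.05, and their smallest adjusted p was 0.498. *Col1a1*, which encodes the alpha 1 chain of type I collagen, was at 0.05 and -0.01 when dr/dr carried Cy3 and at 0.16 and -0.03 when it carried Cy5. Its mean was 0.04 ± 0.0442 (SE, n = 4), and its other 2 probes were at -0.01 and -0.07. *Col1a2*, which encodes the alpha 2 chain, was at -0.15 and -0.13 in Cy3 and at 0.11 and 0.13 in Cy5, with a mean of -0.01 ± 0.0294. The signs of this gene split by dye orientation.

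*Col3a1*, the chain of type III collagen, had the highest mean ratio among the members and, with *Col4a4*, the widest split between dye orientations. Its dr/dr and wild-type spots had intensities of 128 and 215 on array a, 143 and 177 on array c, 152 and 81.2 on array b, and 156 and 104 on array d. After loess the log2 ratios were 0.41 and 0.80 when dr/dr carried Cy3 and -0.12 and -0.48 when it carried Cy5. The mean of 0.15 ± 0.0934 had an interval of -0.09 to 0.40 and an adjusted p of 0.498 in limma. Its other 2 probes were at -0.02 and -0.03. The direction thus held neither across the dyes nor across the probes of this gene.

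The type V chains, which nucleate the type I fibrils, were likewise near 0. *Col5a1* was at -0.01 and -0.22 in Cy3 and at 0.24 and 0.13 in Cy5, with a mean of 0.04 ± 0.0489. Its second probe was lower on all 4 arrays (-0.23, -0.02, -0.21 and -0.03 on a to d, mean -0.12, unadjusted p = 0.0103 and adjusted p = 0.159 with limma). *Col5a2* was at 0.16 and -0.27 in Cy3 and at 0.06 and -0.05 in Cy5, with a mean of -0.02 ± 0.0804. Arrays a and c, of the same orientation, lay farthest apart here.

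**Figure D2:**
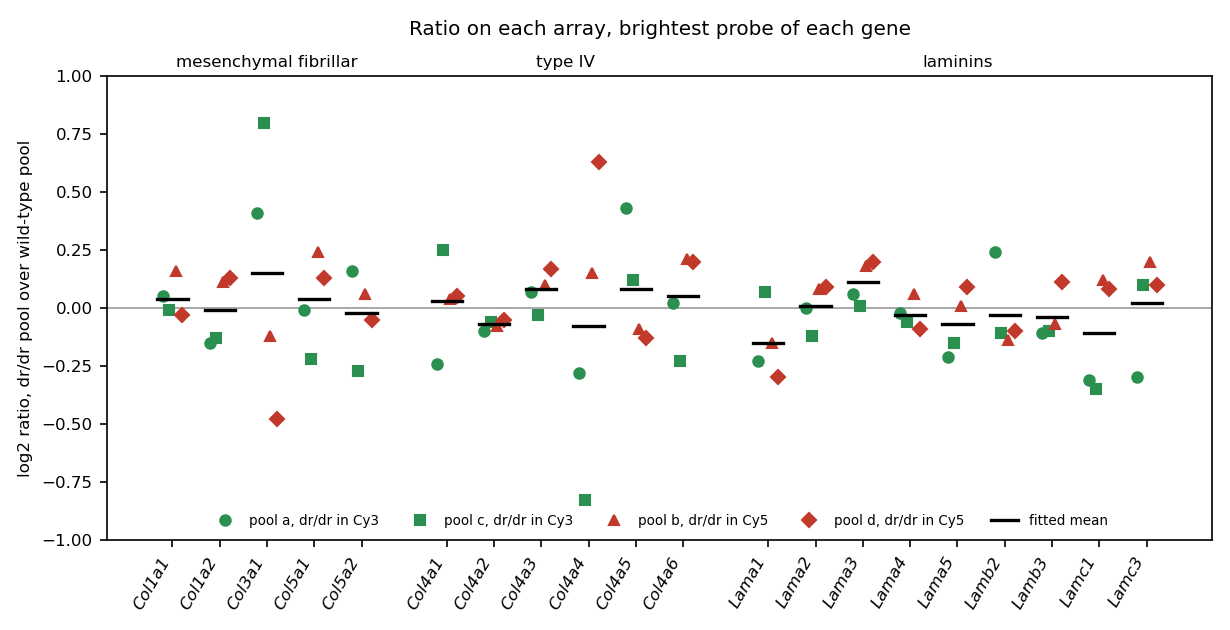
Log2 ratio of dr/dr over the wild-type pool on each array (y axis) for the brightest probe of the mesenchymal fibrillar collagens, the type IV collagens and the laminins (x axis). Green circles and squares are arrays a and c with dr/dr in Cy3, red triangles and diamonds arrays b and d with dr/dr in Cy5, and the bar is the fitted mean. *Col3a1* is high in green and low in red, *Col4a4* the reverse, and *Col4a2* and *Lama3* keep 1 sign on all 4 arrays.

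Of the other fibrillar collagens, *Col2a1* had the lowest mean ratio and the smallest p-value among the members. It encodes type II collagen, best known from cartilage and notochord. Its dr/dr and wild-type spots had intensities of 337 and 1117 on array a, 265 and 802 on array c, 777 and 295 on array b, and 768 and 312 on array d. The log2 ratios were -0.40 and -0.30 when dr/dr carried Cy3 and 0.03 and -0.07 when it carried Cy5. The mean of -0.19 ± 0.0376 is 87.9% of the wild-type level (unadjusted p = 0.00554, adjusted p = 0.134 with limma, n = 4). Nearly all of the difference came from the Cy3 arrays, with a mean of -0.35 there and -0.02 on the Cy5 arrays. A second probe gave the same pattern, with -0.28 and -0.32 in Cy3 and 0.07 and -0.12 in Cy5 (mean -0.16, unadjusted p = 0.0165 with limma across all probes). The remaining, dimmer probe was at 0.02. The remaining 5 of this class, *Col11a1*, *Col11a2*, *Col5a3*, *Col24a1* and *Col27a1*, lay between -0.02 and 0.06. Of 6 cartilage marker genes *Chad*, which encodes chondroadherin, was at -0.13 (unadjusted p = 0.0141 with limma across all probes). The mean of *Chad* was -0.31 in Cy3 and 0.05 in Cy5. The brightest probes of *Acan*, *Matn1*, *Matn3*, *Sox5* and *Comp* had unadjusted p-values above 0.05, with *Acan* at -0.05 and *Sox5* at 0.11. Of the 5 dimmer *Sox5* probes, 1 was higher on all 4 arrays (0.16, 0.13, 0.32 and 0.24, mean 0.22, unadjusted p = 0.00529, limma) and another was at 0.09 (unadjusted p = 0.0433, limma), the opposite direction to *Chad* and *Col2a1*. Whether cartilage RNA had a part in the value of *Col2a1* was not tested.

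The type IV collagens had a median of 0.04, with none at an unadjusted p under 0.05. *Col4a1* and *Col4a2* form the trimer of most basement membranes, and their genes lie head to head. *Col4a2* was at -0.10, -0.08, -0.06 and -0.05 on arrays a to d, a mean of -0.07 ± 0.0302 (adjusted p = 0.338, limma). Its second probe was at -0.08, -0.13, -0.06 and -0.14, with a mean of -0.10 and an unadjusted p of 0.0202 in the limma fit. It was 1 of 4 members that were lower on all 4 arrays by the brightest probe, with *Col9a3*, *Col6a3* and *Col17a1*. Over all genes 9% were lower on all 4 arrays, and 6.74% were higher on all 4, as was 1 member, *Lama3*. *Col4a1* was at -0.24, 0.04, 0.25 and 0.05 on arrays a to d, with a mean of 0.03 ± 0.0876. Its 3 other probes did not share a direction. The first was lower on all 4 arrays, with -0.16, -0.06, -0.12 and -0.03 (mean -0.09, unadjusted p = 0.0332, limma), and the other two were at 0.05 and 0.06.

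The alpha 3 to alpha 6 chains belong to more specialized basement membranes, such as that of the kidney glomerulus. *Col4a4* showed the widest range of all 50 members, at -0.28 and -0.83 when dr/dr carried Cy3 and at 0.15 and 0.63 when it carried Cy5, with a mean of -0.08 ± 0.124. *Col4a5* ran the other way, at 0.43 and 0.12 in Cy3 and at -0.09 and -0.13 in Cy5, with a mean of 0.08 ± 0.0593. *Col4a3* was at 0.07 and -0.03 in Cy3 and at 0.10 and 0.17 in Cy5 (mean 0.08 ± 0.0353). *Col4a6* was at 0.02 and -0.23 in Cy3 and at 0.21 and 0.20 in Cy5 (mean 0.05 ± 0.0499). In *Col4a4* and *Col4a5* the dyes were fully separated, in opposite directions. The basement membrane collagens *Col15a1* and *Col18a1*, the second of which is the source of endostatin, were at 0.00 and -0.06.

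The laminins had a median of -0.03, with 6 of the 9 genes below 0. *Lamc1*, the gamma chain of most laminins, had dr/dr and wild-type intensities of 192 and 579 on array a, 165 and 493 on array c, 456 and 173 on array b, and 463 and 181 on array d. The log2 ratios were -0.31 and -0.35 when dr/dr carried Cy3 and 0.12 and 0.08 when it carried Cy5. The mean of -0.11 ± 0.0305 had an unadjusted p of 0.0159 and an adjusted p of 0.184 in limma. Its p-value rests on the closeness of the arrays within each orientation, since the 2 orientations had opposite signs. *Lama1*, the alpha chain of the early embryo and the pial basement membrane, was at -0.23, -0.15, 0.07 and -0.30 on arrays a to d (mean -0.15 ± 0.062, unadjusted p = 0.0599, limma). Its second, dimmer probe was at 0.10.

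*Lama3*, the alpha chain of the epidermal laminin, was the only member above 0 on all 4 arrays. It was at 0.06 and 0.01 in Cy3 and at 0.18 and 0.20 in Cy5, a mean of 0.11 ± 0.03 (unadjusted p = 0.0171, adjusted p = 0.189, limma). Its second probe was at 0.00. *Lamb3*, which encodes the beta chain of the same trimer, was at -0.11, -0.07, -0.10 and 0.11 on arrays a to d, with a mean of -0.04 ± 0.0414.

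The chains of vessels, muscle and nerve had mean ratios between -0.07 and 0.02. *Lama5*, the most widespread alpha chain, was at -0.21 and -0.15 in Cy3 and at 0.01 and 0.09 in Cy5 (mean -0.07 ± 0.0336). *Lama4*, found in vessel walls, was at -0.02, 0.06, -0.06 and -0.09 on arrays a to d (mean -0.03 ± 0.0386), and its other 3 probes were at 0.02, -0.10 and -0.05. *Lama2*, the alpha chain of muscle, was at 0.00, 0.08, -0.12 and 0.09 (mean 0.01 ± 0.0357). *Lamb2*, the beta chain of synaptic and glomerular basement membranes, was at 0.24, -0.14, -0.11 and -0.10 (mean -0.03 ± 0.0645). *Lamc3* was at -0.30, 0.20, 0.10 and 0.10 (mean 0.02 ± 0.0751). For *Lamb2* and *Lamc3* array a stood apart from the other 3, in opposite directions.

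Setting the fibrillar collagens of mesenchyme and meninges against the basement membrane genes gave no difference beyond the spread between arrays. The median of the 17 basement membrane collagens and laminins was -0.03, with -0.04, 0.04, -0.06 and 0.08 on arrays a to d. The mesenchymal fibrillar median was thus higher by 0.06 from the fitted means. On the single arrays this difference was 0.09, 0.06, -0.07 and -0.11, with a mean of -0.01 and an SD of 0.0985 (n = 4). The sign of the difference changed between arrays, and the fitted value and the mean over the arrays had opposite signs. It was 0.01 over the Cy3 arrays and -0.02 over the Cy5 arrays. With all 11 fibrillar collagens in place of the 5 the difference was 0.03, and with the laminins alone as the basement membrane genes it was 0.06. No test was run, since only 2 of the 16 sign patterns of 4 arrays are extreme, and no exact permutation p under 0.05 can be reached.

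**Figure D3:**
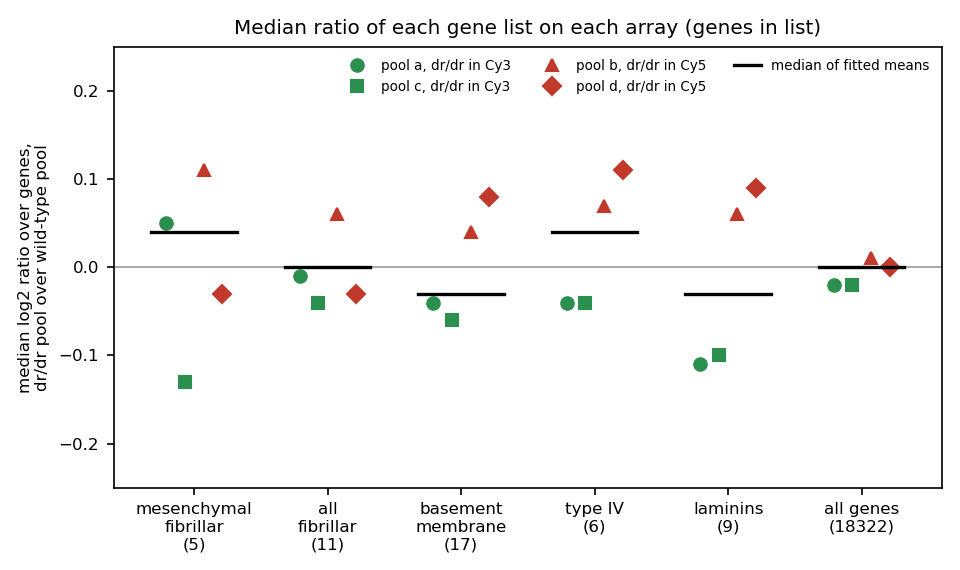
Median log2 ratio of dr/dr over the wild-type pool over the genes of each list (y axis), on each array; the number of genes stands in brackets (x axis). Green marks are arrays with dr/dr in Cy3, red marks arrays with dr/dr in Cy5, and the bar is the median of the fitted means. The laminins are at -0.11 and -0.10 in green and at 0.06 and 0.09 in red. All genes stay between -0.02 and 0.01, since loess centres each array.

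The members differed more between the dye orientations than on average from 0. For 36 of the 50 members the dye term was larger than the genotype term, against 11168 of all 18322 genes. For 21 of the 50 members both arrays of 1 orientation had 1 sign and both of the other orientation the opposite sign, against 33.4% of all genes. The median of all members was -0.06 over the Cy3 arrays and 0.05 over the Cy5 arrays, and that of the laminins was -0.08 and 0.05. The all-gene medians of -0.02 and 0.01 are held near 0 by loess. They do not show how far a short list of genes moves between orientations. Whether the split of the members comes from the dyes or from the pools was not tested.

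The remaining collagens gave means between -0.09 and 0.09. Among the 9 fibril-associated collagens, which sit on the surface of fibrils, none had an unadjusted p under 0.05. *Col20a1* had the lowest mean of this class, at -0.27 and -0.10 in Cy3 and at -0.04 and 0.06 in Cy5 (mean -0.09 ± 0.0439). *Col22a1*, known from the muscle-tendon junction, was at -0.30, 0.22, 0.17 and 0.26 on arrays a to d (mean 0.09 ± 0.0846), and its other 2 probes were at 0.01 and 0.05. The 3 type IX chains of cartilage, *Col9a1*, *Col9a2* and *Col9a3*, lay between -0.05 and 0.02.

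The type VI collagens, which form beaded filaments around cells of soft tissue, had a median of -0.02 over 4 genes. *Col6a3* was at -0.02, -0.07, -0.04 and -0.21 on arrays a to d (mean -0.08 ± 0.0373). Its 3 other probes were at -0.05, 0.01 and 0.00. *Col6a1*, *Col6a2* and *Col6a6* were at 0.01, -0.05 and 0.02.

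Of the 9 anchoring, network and transmembrane collagens, *Col7a1* alone was at an unadjusted p under 0.05, by a narrow margin (adjusted p = 0.293, limma). It encodes the anchoring fibrils beneath the epidermis. Its ratio was 0.19 and 0.20 in Cy3 and -0.01 and -0.06 in Cy5, with a mean of 0.08 ± 0.03. The brightest of 4 *Col8a1* probes was at 0.05, and the other 3 were at 0.11, 0.19 and 0.01. The first of these was at 1.40 and 1.02 in Cy3 and at -0.81 and -1.17 in Cy5, which shows how far a single probe moved with the orientation. *Col25a1*, a transmembrane collagen of neurons, had 6 probes, of which the brightest was at 0.00. A dimmer one was higher on all 4 arrays, at 0.16, 0.09, 0.19 and 0.12 (mean 0.14, unadjusted p = 0.00687 and adjusted p = 0.14 with limma).

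The probes of 1 gene often differed. Of the 50 members 33 had several probes and 17 had 1, and in 21 of the 33 the probes included both signs. Over all 114 member probes the ratios ran between -0.19 and 0.19. At an unadjusted p under 0.05 there were 10 member probes (8.77%), 6 lower and 4 higher, against 17.1% of all probes. Apart from the brightest probes already named they belonged to *Col2a1*, *Col4a1*, *Col4a2*, *Col5a1*, *Col8a1* and *Col25a1*. Only for *Col2a1* did both the brightest probe and another one reach that level. Above background in both channels on all 4 arrays were 76 of the 114 probes.

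*Lmx1a* lies on chromosome 1, as did 9 of the members by the RefSeq table of GRCm38.p6. The nearest was *Lamc1*, with 109 measured genes between the 2, followed by *Lamb3* with 211. The other 7 were 383 to 754 measured genes away, among them the neighbours *Col3a1* and *Col5a2*. Positions are given for the members only. Any part of the flanking chromosome in the values of the members, or of the related and marker genes below, was not tested.

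In the 4 lists of genes that make, bind or sense collagens and laminins, 1 probe was called by the permutation F2 test, a dimmer probe of *Sparc*, and none by limma. By the brightest probes neither test called a gene of these lists, and the counts that follow are of brightest probes. Of 21 measured collagen-making and cross-linking genes, 6 had an unadjusted p under 0.05 (28.6%, against 18.3% of all genes), with 5 lower and 1 higher and a list median of -0.06. *Plod1* and *Plod3* encode lysyl hydroxylases. *Plod1* was at -0.15, -0.17, -0.20 and -0.09 on arrays a to d (mean -0.15, unadjusted p = 0.00692, limma). *Plod3* was at -0.27, -0.06, -0.14 and -0.17 (mean -0.16, unadjusted p = 0.0138, limma), and its second probe was at -0.18. Both genes were lower on every array, at both orientations. Dimmer probes of *Adamts3* and *Loxl1*, at -0.22 and -0.11, also had an unadjusted p under 0.05, while the brightest were at -0.07 and 0.00.

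*P4hb*, the beta subunit of prolyl 4-hydroxylase, was at -0.41 and -0.33 in Cy3 and at -0.03 and 0.00 in Cy5 (mean -0.19, unadjusted p = 0.00243 and adjusted p = 0.114, limma). *P4ha2*, an alpha subunit of the same enzyme, was at 0.19, 0.02, 0.33 and 0.08 on arrays a to d (mean 0.15, unadjusted p = 0.0132, limma), with a second probe, not above background on any array in the dr/dr channel, at 0.00. *Bmp1*, the protease that trims the procollagen C-terminus, was at -0.64, -0.19, -0.29 and -0.38 (mean -0.38, unadjusted p = 0.00431 and adjusted p = 0.126, limma), and its second probe was at -0.03. *Pcolce*, which encodes an enhancer of that protease, was at -0.11 (unadjusted p = 0.0462, limma). *Serpinh1*, the collagen chaperone, was at 0.16, -0.20, -0.40 and -0.35 (mean -0.20, unadjusted p = 0.111, limma). *P4hb* and *P4ha2*, subunits of 1 enzyme, thus had ratios of opposite sign. The other listed alpha subunits, *P4ha1* and *P4ha3*, had the sign of *P4hb*, at -0.10 and -0.11 (unadjusted p = 0.293 and 0.069, limma).

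Among 11 basement membrane partners 1 had an unadjusted p under 0.05, and the list median was -0.02. *Pxdn*, the peroxidase that cross-links type IV collagen, was at -0.12, -0.21, -0.09 and -0.44 on arrays a to d (mean -0.22, unadjusted p = 0.00808, limma), and its dimmer probe was at -0.01. *Sparc*, which encodes a collagen-binding protein of basement membranes, differed between its 2 probes. The brighter one was at 0.33 and 0.38 in Cy3 and at -0.21 and -0.56 in Cy5 (mean -0.02, unadjusted p = 0.809, limma). The dimmer one, above background on all 4 arrays in both channels, was at -0.78 and -0.66 in Cy3 and at -0.25 and -0.51 in Cy5. Its mean of -0.55 had a family-wise p of 0.0154 in the permutation F2 test and an adjusted p of 0.0967 in limma, so that this probe was lower on every array while the brighter one changed sign between orientations. *Dag1*, the dystroglycan gene, was at -0.22 by the brighter probe (unadjusted p = 0.0984, limma) and at -0.23 by the other (unadjusted p = 0.034, limma). The nidogens *Nid1* and *Nid2* and the perlecan gene *Hspg2* were at -0.02, 0.00 and -0.12. Of 12 receptors 2 were at that level, both lower, with a list median of -0.02. *Itga6*, the alpha 6 chain of laminin-binding integrins, was at -0.19, -0.09, -0.13 and -0.23 (mean -0.16, unadjusted p = 0.0108, limma). *Itga1*, a chain of a collagen-binding integrin, was at -0.27, -0.41, 0.05 and -0.21 (mean -0.21, unadjusted p = 0.033, limma). Dimmer probes of *Itga3* and *Itgb1*, at -0.17 and 0.14, also had an unadjusted p under 0.05. Both *Itga6* and *Itga1* had dimmer probes on either side of 0, from -0.06 to 0.03 for *Itga6* and from -0.01 to 0.05 for *Itga1*.

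Of 6 fibril-binding proteoglycans 1 was at an unadjusted p under 0.05. *Lum*, which encodes lumican, was at 0.11 and 0.03 in Cy3 and at 0.58 and 0.83 in Cy5. The mean of 0.39 ± 0.0516 was positive on all 4 arrays (unadjusted p = 0.000984, adjusted p = 0.105 with limma, family-wise p = 0.399 in the permutation F2 test). *Dcn*, the related decorin gene, was at 0.09.

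**Figure D4:**
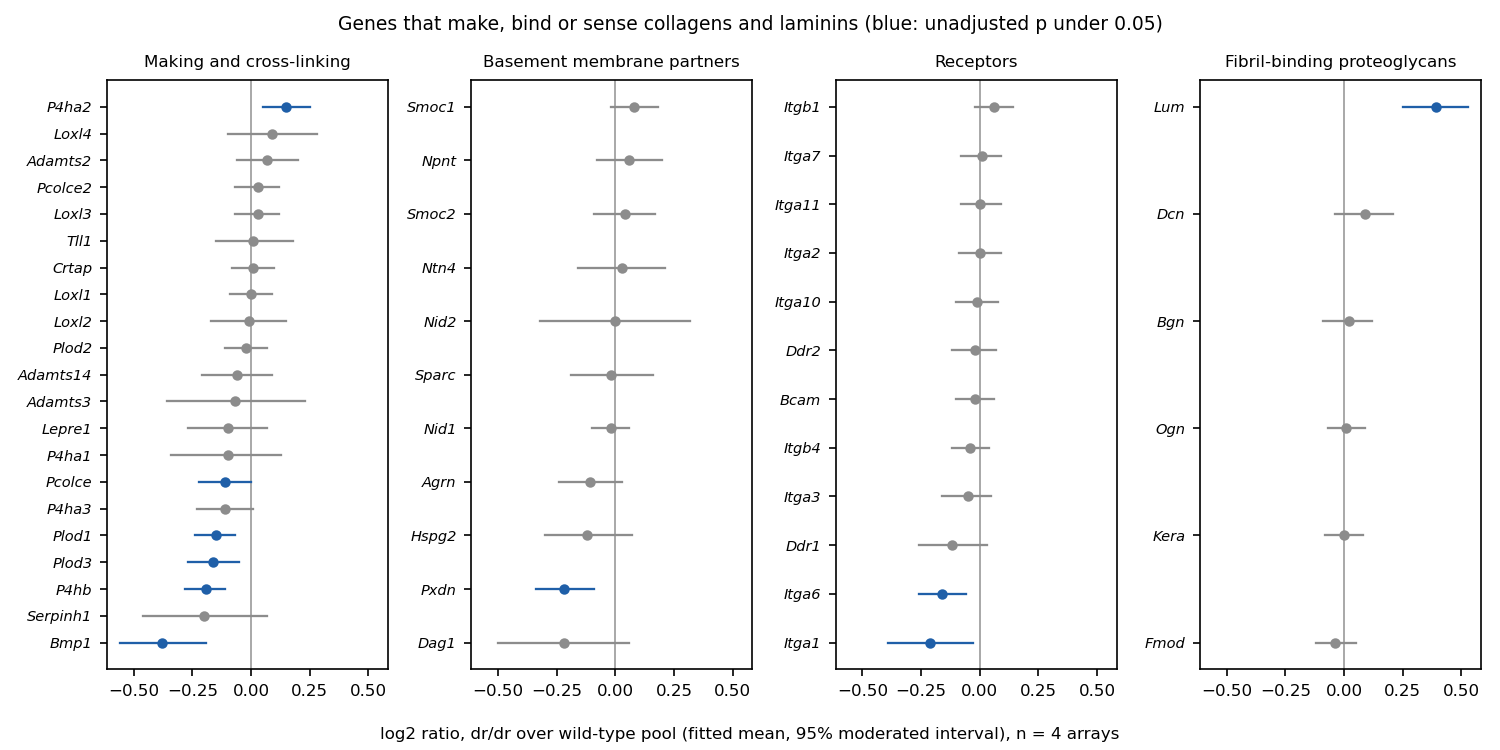
Fitted mean log2 ratio of dr/dr over the wild-type pool (points, x axis) with its 95% moderated interval (lines) for the brightest probes of the measured genes of 4 related lists (y axis), n = 4 arrays. Blue marks an unadjusted p under 0.05: 6 of 21 making and cross-linking genes, 1 of 11 basement membrane partners, 2 of 12 receptors and 1 of 6 proteoglycans.

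The marker genes of cells that make these proteins were measured beside them. Of 13 markers of cranial mesenchyme and meninges, 12 were above background on all 4 arrays, the list median was 0.01, and *Lum* alone was at an unadjusted p under 0.05. *Foxc1*, which the mesenchyme of the meninges requires, was at 1.01 on array a, -0.76 on array b and -0.91 on array d, with array c close to array a (mean 0.08). The endothelial list (8 genes) had a median of -0.05, with 7 genes below 0 and *Tie1* at -0.19 (unadjusted p = 0.00209, limma), while a dimmer *Flt1* probe was at 0.12 (unadjusted p = 0.0315, limma). The pericyte list (6 genes) had a median of -0.11, with 5 genes below 0. The endothelial list was low on array a, with medians of -0.17, -0.01, 0.03 and 0.03 on arrays a to d. The pericyte list was low on both Cy3 arrays, with -0.26, 0.03, -0.14 and 0.01. Taken over the means of each gene by orientation, the endothelial median was -0.09 in Cy3 and 0.01 in Cy5. The pericyte median was -0.21 and 0.02. *Tie1* had a mean of -0.38 in Cy3 and 0.01 in Cy5.

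*Rgs5*, a marker of pericytes, was at -0.55, -0.09, -0.40 and -0.26 on arrays a to d (mean -0.32 and adjusted p = 0.106, limma), and its second probe was at -0.30, -0.31, -0.31 and -0.29 (adjusted p = 0.0967, limma). *Cspg4*, which pericytes also express, was at -0.13 (unadjusted p = 0.0132, limma), with its other 2 probes at 0.05 and -0.03. Its brightest probe had a mean of -0.29 in Cy3 and 0.04 in Cy5. Vessel walls hold much of the basement membrane of the brain, and the basement membrane median beside these values was -0.03. The part of vessel cells in that median was not tested. Blood genes had a median of 0.00 over 4 genes, with *Hba-a1* at -0.17. Microglial and macrophage markers had a median of -0.01 over 4 genes, with a dimmer *Aif1* probe at -0.11 (unadjusted p = 0.0246, limma), and surface ectoderm markers a median of 0.02 over 5, with *Krt5* at -0.13. Neural progenitor markers had a median of 0.05 over 6 genes (*Msi1* at -0.18, with a dimmer probe at -0.01, and *Sox1* at -0.16). Neuronal markers had a median of -0.01 over 5 genes, with *Tubb3* at -0.35. *Elavl4* was at 0.19 by its brightest probe and at -0.20 by the other. *Tubb3* had a mean of -0.80 in Cy3 and 0.11 in Cy5, and *Msi1* of -0.47 and 0.11. For *Hba-a1* these means were -0.78 and 0.43, and for *Krt5* -0.32 and 0.05. The brightest *Elavl4* probe was at 0.44 in Cy3 and -0.05 in Cy5.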

How the data were processed

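The authors deposited raw spot and local background intensities (ImaGene 8.0, no background subtracted) of 4 dual-colour arrays, and a table of log2 ratios that they normalized by print-tip loess. From the deposited mean intensities, log2 ratios were computed with 1 loess curve per array (span 0.3, 4 iterations), without weight for 4046 of 45220 spots, which are controls, and turned to dr/dr over wild-type. They correlated with the authors' log2 table at r = 0.964 to 0.982. No filter was applied. A spot was above background where its mean exceeded the background mean by 2 SD. Tests used limma 3.58.1 in R 4.3.3 (lmFit with a dye term, eBayes), and standard errors leave out the dye effect. The permutation F2 test shuffled residuals 5000 times over all probes (Python 3.11.15, numpy 2.4.6), and a family-wise p under 0.05 was called. Both were tested on simulated data. Nothing in the sources says that pools were of separate litters, so p-values measure the spread between these pools.

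Symbols came from the platform annotation, which names 34186 probes and leaves 6988 unnamed. *Col6a4*, *Col6a5* and *Lox*, and the marker *Map2*, were not matched and are not analysed here. All members may be named. Values per array are given for the mesenchymal fibrillar and type IV collagens, the laminins, members at an unadjusted p under 0.05 and the 5 highest and 5 lowest ratios, and *Col8a1* and *Col25a1* were added after their values were seen. In other lists, genes at that p are named, with some others for their role. Lists are described by counts and medians, without a test. The members and lists were chosen with earlier results of these data known. Promoter and protein sequences are not shown, because the arrays measured transcript levels only.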

Additional observations from a re-analysis of the deposited data

Results flagged for a closer look

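In 3 of the 50 members 1 array lay apart from the other 3 by Dixon's criterion for the gap at 1 end of 4 values. Chance alone does so for about 1 in 20 groups. *Lamb3* was at 0.11 on array d, against -0.11 to -0.07 on the other arrays, and its wild-type signal was above background on 3 of 4 arrays. *Lamb2* was at 0.24 on array a, against -0.14 to -0.10 on the others. *Col22a1* was at -0.30 on array a, against 0.17 to 0.26 on the others.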

How the results depend on the processing

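No member was called at an adjusted p under 0.05 in any of the alternatives run, nor by the permutation F2 test. An adjusted p under 0.10 called no member in the limma fit given above, where the smallest was 0.134. Under the alternatives the smallest adjusted p of a member was 0.07 (*Lamc1*, median spot intensity, limma), which is under 0.10. Over all probes limma called 3051 with median spot intensity, 399 with an intensity trend in eBayes, 167 with median centring and 52 without dim probes. The count of 4 members at an unadjusted p under 0.05 was 0 without a dye term, when 9.56% of all genes were at that level. It was 1 of 21 members without dim probes, against 18.2% of all genes, and 10 when all 114 probes were counted, an alternative chosen after seeing the data. With 1 array left out it ran between 1 and 6, and was 1 without array b and 1 without array d, against 14.5% and 13% of all genes. Under the alternatives the mesenchymal fibrillar median ran between -0.02 and 0.04, the basement membrane median between -0.06 and -0.01, and their difference between 0.00 and 0.07. With 1 array left out these ran between -0.01 and 0.06, between -0.04 and 0.00, and between -0.01 and 0.08, all within 1 SD of the arrays. Of 571 single gene values under 12 settings 565 moved by less than the SD of the gene's arrays and 6 by more, and none of the members at an unadjusted p under 0.05 changed sign. No paired analysis was possible because the arrays form 1 group and every pool was set against the same wild-type RNA. The dim channel, at 70.0 to 84.7 against a background near 33, and the number of arrays limit what could be detected.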
